A study of Mus musculus with 8 samples.

Results

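The 10 genes described here make, load or switch on MHC class II, the complex that shows peptides to CD4+ T cells. They were chosen by symbol, and all 10 were found among the 55487 genes of the tables. Their RNA was counted in whole liver from 8 mice, 4 Control and 4 Mc1r LKO. The Control mice bore the numbers 154, 159, 181 and 193, and the others 141, 156, 157 and 182. Control mice were Mc1r fl/fl, homozygous for a floxed allele of the melanocortin 1 receptor gene. Mc1r LKO mice came from crossing Mc1r fl/fl with Alb Cre/+ mice, in which the albumin promoter directs Cre to hepatocytes. All were males that went onto a cholesterol-rich Western diet at 8 weeks of age and stayed on it for 12 weeks. The floxed allele was common to both groups, Cre was carried by Mc1r LKO mice, and the transgene and the deletion of Mc1r cannot be told apart in this design. The comparison asked whether the class II genes of whole liver differed when the receptor was deleted in hepatocytes, cells that make little or no class II themselves.

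Class II is a pair of chains, alpha and beta, that assemble on the invariant chain Cd74 in the endoplasmic reticulum. In endosomes proteases such as Ctss trim the invariant chain down to a short peptide, H2-DM exchanges that peptide for one cut from captured protein, and H2-O restrains H2-DM. The genes of the class II chains, Cd74 and H2-DM share a switch, the coactivator Ciita. It does not bind DNA itself but joins the factors that sit on the X and Y boxes of class II promoters. Dendritic cells, B cells and macrophages carry class II at rest, other cells take it on under interferon-gamma, and in liver it is best known from dendritic cells, Kupffer cells and sinusoidal endothelium.

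The promoters are shown first because Ciita works through those of class II genes. RefSeq promoter windows (GRCm38.p6, 250 bases before to 50 after a start site) were at hand for 7 of the 10 genes, namely H2-Aa, H2-Eb1, H2-DMa, H2-DMb1, H2-DMb2, H2-Oa and Ctss. The Y box is the site of the trimeric factor NF-Y, and its core was searched on both strands as GATTGG and, within it, in the longer form CTGATTGG. For the X box only the form CTAGNNAC was searched, in the same way, so a window without it may hold an X box of another form. GATTGG was found in 6 of the 7 genes, all except Ctss, and in 16.1% of all 32851 promoter windows. CTGATTGG was found in H2-Aa, H2-Eb1 and H2-Oa, and in 4.10% of all windows. CTAGNNAC was found in H2-Eb1 and H2-DMb1, and in 10.4% of all windows. The stretches from 110 to 11 bases before the start of the 2 chain genes lay at chr17:34287834-34287933 on the minus strand for H2-Aa and at chr17:34305757-34305856 on the plus strand for H2-Eb1, with the motifs on the strand of the gene in capitals:
H2-Aa: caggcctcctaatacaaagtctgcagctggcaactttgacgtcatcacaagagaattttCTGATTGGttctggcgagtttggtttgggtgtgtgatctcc
H2-Eb1: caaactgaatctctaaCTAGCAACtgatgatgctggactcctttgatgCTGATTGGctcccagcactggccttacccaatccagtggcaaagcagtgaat

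CTAGNNAC began 34 bases before GATTGG in H2-Eb1 and 35 bases before it in H2-DMb1. For the H2-DM beta genes and H2-O, the 30 bases round the Y box core are printed so that the paralogs can be compared, at chr17:34153117-34153146, chr17:34145146-34145175 and chr17:34092323-34092352, all on the plus strand:
H2-DMb1: gattcactcagtGATTGGtctgacctgcct
H2-DMb2: aagtcacttagtGATTGGactgacttaact
H2-Oa: gagaactgctCTGATTGGctgcttaccgca
On the strand of the gene, GATTGG began 49 bases before the start in H2-Aa, 60 in H2-Eb1, 62 in H2-DMb1, 91 in H2-DMb2 and 44 in H2-Oa. On the opposite strand a further match, in lower case above, lay 35 bases before the start of H2-Eb1. In H2-DMa, GATTGG began 199 bases before one of the 2 starts listed for that gene. These starts are those of RefSeq. In the annotation used for counting, all 30 bases printed for H2-DMb1 and 13 of the 30 for H2-Oa lie within exons, and H2-DMb1 and H2-DMb2 begin upstream of the printed sites. These are matches of letters and say nothing of occupancy.

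The total count per mouse lay between 10773151 (Control mouse 159) and 24763375 (Mc1r LKO mouse 157). No read pair was counted for Mc1r in any mouse. Since a count of 0 leaves room for 3 counts (0.121 to 0.278 CPM by mouse, where CPM are read pairs of a gene scaled to a common library total), the genotypes could not be checked against it. Markers of hepatocytes were present throughout, with sums of 75700 to 111100 CPM after TMM normalization, as are all levels that follow. Control mouse 159 and Mc1r LKO mouse 182 stood apart from the rest of their groups for most class II genes, so results are given with and without them. Of the 10 genes, 9 passed the filter on low counts and H2-Oa did not.

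No class II gene differed between the genotypes after adjustment. The threshold of 0.05 on the adjusted p-value of edgeR's quasi-likelihood test was passed by 0 of the 9 genes and by 0% of all 13400 genes in the test, and by 0 of the 9 with DESeq2 or limma-voom. Adjusted p-values ran from 0.734 to 0.871 and unadjusted ones from 0.0332 to 0.243. Ciita alone had an unadjusted p-value under 0.05, lower in Mc1r LKO mice, in 1 of 9 genes against 2.87% of all tested genes. None was higher at that threshold, where 3.86% of all tested genes were. All 9 had a log2 fold change below 0, against 52.1% of all genes, with a median of -1.04 against -0.01. The 9 genes largely moved together over the mice, so their signs are not independent. In 0 of the 9 genes did every Mc1r LKO mouse lie below every Control mouse, against 1.54% of all genes. The size of the shift depended on mice 159 and 182. Leaving out Control mouse 159 brought the median to -0.23 and the genes at an unadjusted p-value under 0.05 to 0. Without Mc1r LKO mouse 182 alone the median was -0.78, and all 9 genes stayed below 0 in both fits. Leaving out both mice brought the median to 0.04, with 4 of 9 genes below 0. Without Control mouse 181, by contrast, 7 of the 9 fell below 0.05 before adjustment. In that fit 6.52% of all tested genes did so, in either direction. Mouse 181 had the lowest Control level for most class II genes, so its removal was bound to lower their log2 fold changes. Mice 159 and 182 were singled out from these same genes, as the highest and the lowest. Leaving them out was therefore bound to raise the log2 fold changes and cannot show what the common direction rests on.

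**Figure D1:**
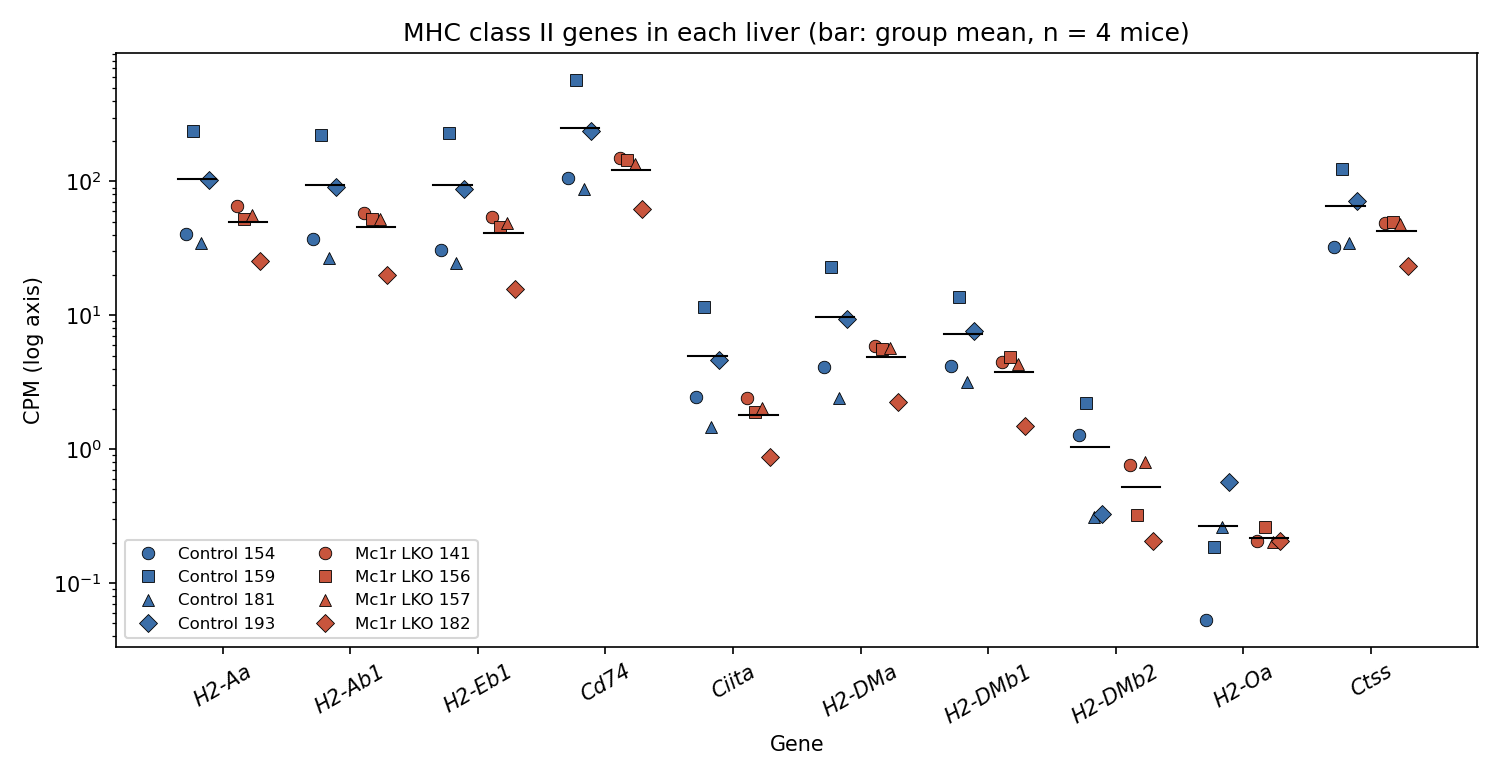
CPM on a log axis (y) of the 10 class II genes (x) in each of the 8 livers, with Control mice in blue, Mc1r LKO mice in red, a symbol for each mouse and a bar at the mean of each group. Control mouse 159 was highest in 9 of the 10 genes, and the 4 Mc1r LKO mice lay within the range of the Control mice or below it.

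The alpha and beta chains of the peptide-binding complex came first. H2-Aa, the alpha chain of I-A (ENSMUSG00000036594, chromosome 17 of GRCm38, 34282744 to 34287823), was at 40.1, 239, 34.9 and 102 CPM in Control mice 154, 159, 181 and 193. It was at 65.9, 52.5, 56.6 and 25.6 CPM in Mc1r LKO mice 141, 156, 157 and 182. Control mouse 159 stood above the other mice, Mc1r LKO mouse 182 below them, and the groups overlapped. The group values were 104 ± 94.9 CPM (SD, n = 4) and 50.1 ± 17.3 CPM (SD, n = 4). The log2 fold change was -1.05 (95% interval -2.29 to 0.19), that is, between 0.205 and 1.14 times the Control level.

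H2-Ab1, the beta chain of I-A (ENSMUSG00000073421, chromosome 17, 34257689 to 34269419), was at 37.2, 223, 26.7 and 90.2 CPM in Control mice and at 57.9, 52.5, 52.8 and 19.8 CPM in Mc1r LKO mice, in the same order of mice. The order of the 8 mice was that of H2-Aa. Its log2 fold change was -1.04 (95% interval -2.37 to 0.29).

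H2-Eb1, the beta chain of I-E (ENSMUSG00000060586, chromosome 17, 34305867 to 34316674), was at 30.8, 231, 24.7 and 88.5 CPM in Control mice and at 54.6, 45.4, 49.3 and 15.8 CPM in Mc1r LKO mice. It had the widest range of the 3 chains, 14.6-fold between the highest and the lowest mouse, and a log2 fold change of -1.18 (95% interval -2.63 to 0.27). Its partner H2-Ea, the alpha chain of I-E, had 0 counts in every mouse, which allows up to 3 counts per mouse. The H2b haplotype of C57BL/6 mice is known to carry a deletion in the promoter of H2-Ea, so that I-E is not displayed although H2-Eb1 is transcribed. The H2 haplotype of these mice was not given in the sources used here.

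Cd74, the invariant chain (ENSMUSG00000024610, chromosome 18, 60803848 to 60812652), was the most abundant of the genes, at 105, 573, 88.2 and 239 CPM in Control mice and at 149, 144, 134 and 61.8 CPM in Mc1r LKO mice. Mouse 159 was again highest and mouse 182 lowest, with group values of 251 ± 225 CPM (SD, n = 4) and 122 ± 40.8 CPM (SD, n = 4). The log2 fold change was -1.04 (95% interval -2.24 to 0.16). Of its 1679 exon bases, 12 overlap the microRNA gene Mir5107 on the same strand.

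Ciita, the class II transactivator (ENSMUSG00000022504, chromosome 16, 10480059 to 10528418), was at 2.45, 11.4, 1.46 and 4.65 CPM in Control mice. It was at 2.42, 1.88, 2.02 and 0.869 CPM in Mc1r LKO mice, from 17 to 50 read pairs per mouse. The 3 highest values were those of Control mice 159, 193 and 154, but Control mouse 181 lay below 3 of the 4 Mc1r LKO mice. Its log2 fold change of -1.44 (95% interval -2.75 to -0.14) was the largest of the 9, with an unadjusted p-value of 0.0332 and an adjusted p-value of 0.734 by edgeR's quasi-likelihood test. For Ciita the value fell back to -0.67 without Control mouse 159 (unadjusted p = 0.166), and to -0.45 without mice 159 and 182 (unadjusted p = 0.300). It passed 0.05 without Control mouse 154, Control mouse 181 or Mc1r LKO mouse 141, and it did not without any other single mouse.

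The H2-DM genes encode the enzyme-like protein that exchanges peptides. H2-DMa (ENSMUSG00000037649, chromosome 17, 34119541 to 34139101) was at 4.09, 22.8, 2.40 and 9.38 CPM in Control mice and at 5.88, 5.59, 5.74 and 2.25 CPM in Mc1r LKO mice. The log2 fold change was -0.96 (95% interval -2.31 to 0.39). Mice 141, 156 and 157 were nearly level, and mouse 182 was close to Control mouse 181.

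H2-DMb1 (ENSMUSG00000079547, chromosome 17, 34153072 to 34160230) was at 4.15, 13.8, 3.18 and 7.67 CPM in Control mice and at 4.49, 4.87, 4.32 and 1.48 CPM in Mc1r LKO mice. H2-DMb1 had a log2 fold change of -0.90 (95% interval -1.97 to 0.17) and the mouse order of H2-DMa at its ends. Its neighbour and paralog H2-DMb2 (ENSMUSG00000037548, chromosome 17, 34143307 to 34151555) was at 1.28, 2.23, 0.313 and 0.326 CPM in Control mice and at 0.761, 0.325, 0.808 and 0.204 CPM in Mc1r LKO mice. H2-DMb2 rested on 4 to 24 read pairs per mouse, and its log2 fold change was -0.87 (95% interval -2.44 to 0.69). Control mouse 154 was high and Control mouse 193 low for H2-DMb2, unlike for the other genes. Reads common to the paralogs are uncertain in these counts.

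H2-Oa, the alpha chain of the H2-DM inhibitor (ENSMUSG00000024334, chromosome 17, 34092340 to 34095234), had 1, 2, 5 and 14 read pairs in Control mice and 3, 4, 5 and 4 in Mc1r LKO mice. It was at 0.268 ± 0.220 CPM (SD, n = 4) and 0.218 ± 0.0278 CPM (SD, n = 4; two-sided exact permutation test, p = 0.800, where the smallest p that 4 mice against 4 allow is 0.0286). These values lie near the limit of detection, and a difference was not detectable at this depth. H2-Ob, the beta chain of the inhibitor, was at 1.28, 1.58, 0.573 and 1.18 CPM in Control mice and at 1.11, 1.30, 1.13 and 0.562 CPM in Mc1r LKO mice.

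Ctss, cathepsin S, the protease of the last steps of invariant chain cleavage in professional antigen-presenting cells (ENSMUSG00000038642, chromosome 3, 95526786 to 95556403), was at 32.6, 123, 34.9 and 71.1 CPM in Control mice and at 49.1, 50.0, 48.1 and 23.3 CPM in Mc1r LKO mice. Its range over the mice, 5.28-fold, was the narrowest of the 9 genes tested. The log2 fold change was -0.61 (95% interval -1.52 to 0.30), the smallest of the 9.

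**Figure D2:**
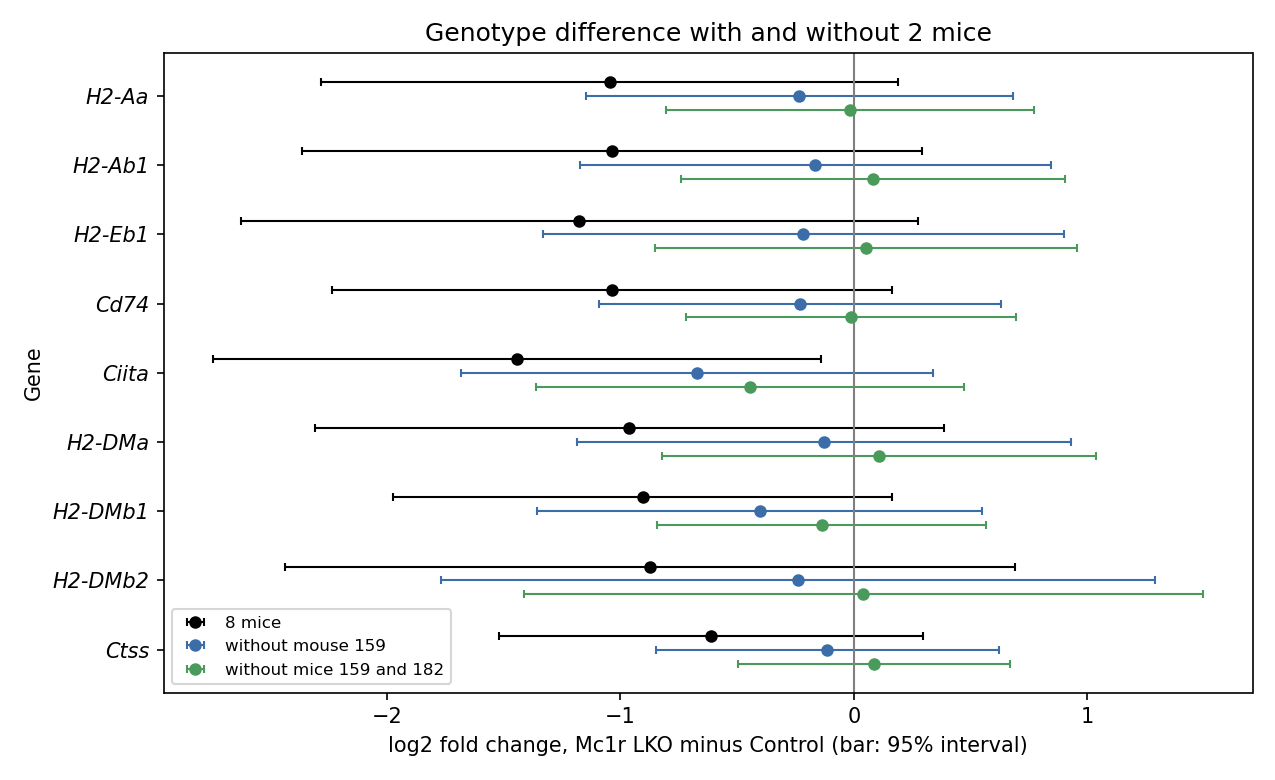
Log2 fold changes (x, Mc1r LKO minus Control, with 95% intervals) of the 9 tested genes (y) with 8 mice in black, without Control mouse 159 in blue, and without mice 159 and 182 in green. The values move from a median of -1.04 to -0.23 and 0.04, and the interval of Ciita with 8 mice is the only one that leaves out 0.

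The spread between mice of one genotype was wide for these genes. The pooled standard deviation of log2 CPM within a genotype was between 0.74 (Ctss) and 1.20 (H2-Eb1) for the 9 genes, and its median over all tested genes was 0.23. It exceeded that of 98.9% of tested genes for H2-Eb1, 98.4% for H2-Ab1, 97.7% for H2-Aa, 97.3% for Cd74 and 93.5% for Ctss. The highest mouse was between 5.28 and 14.6 times the lowest, against a median of 1.63 over all tested genes. Both genotypes held a wide spread, with a standard deviation of 1.49 in Control and 0.83 in Mc1r LKO mice for H2-Eb1. Control mouse 159 was above the mean of the other Control mice by 2.50 in log2 CPM for H2-Eb1, 2.31 for H2-Ab1, 2.19 for H2-Aa and 2.13 for Cd74, and by 1.50 for Ctss. Between 0.127% and 0.291% of all tested genes had a larger difference than each of the first 4. Mc1r LKO mouse 182 differed from the mean of the other Mc1r LKO mice by -1.07 (Ctss) to -1.65 (H2-Eb1) in log2 CPM. Mouse 159 was the highest and mouse 182 the lowest of the 8 mice in each of the 9 genes tested.

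Within a mouse the genes kept nearly fixed proportions. Per kilobase of annotated exon, the ratio of H2-Aa to H2-Ab1 stayed between 0.676 and 0.883 over the 8 mice, while H2-Ab1 itself ranged 11.2-fold. The ratio of H2-Eb1 to H2-Ab1 stayed between 1.05 and 1.37, and that of Cd74 to H2-Ab1 between 3.90 and 5.05. The ratio of H2-DMa to H2-DMb1 was looser, between 0.368 and 0.807. So was that of Ctss to H2-Ab1, between 1.04 in Control mouse 159 and 2.47 in Control mouse 181, with its lowest values in the 2 mice with the most class II and its highest in the 2 mice with the least. The ratio of H2-DMb2 to H2-DMb1 was the widest, between 0.0410 and 0.296. None of these 6 ratios differed by genotype beyond its spread (two-sided exact permutation tests, smallest unadjusted p = 0.343), as in Cd74 to H2-Ab1, at 4.34 ± 0.500 (SD, n = 4) in Control and 4.20 ± 0.402 (SD, n = 4) in Mc1r LKO mice.

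**Figure D3:**
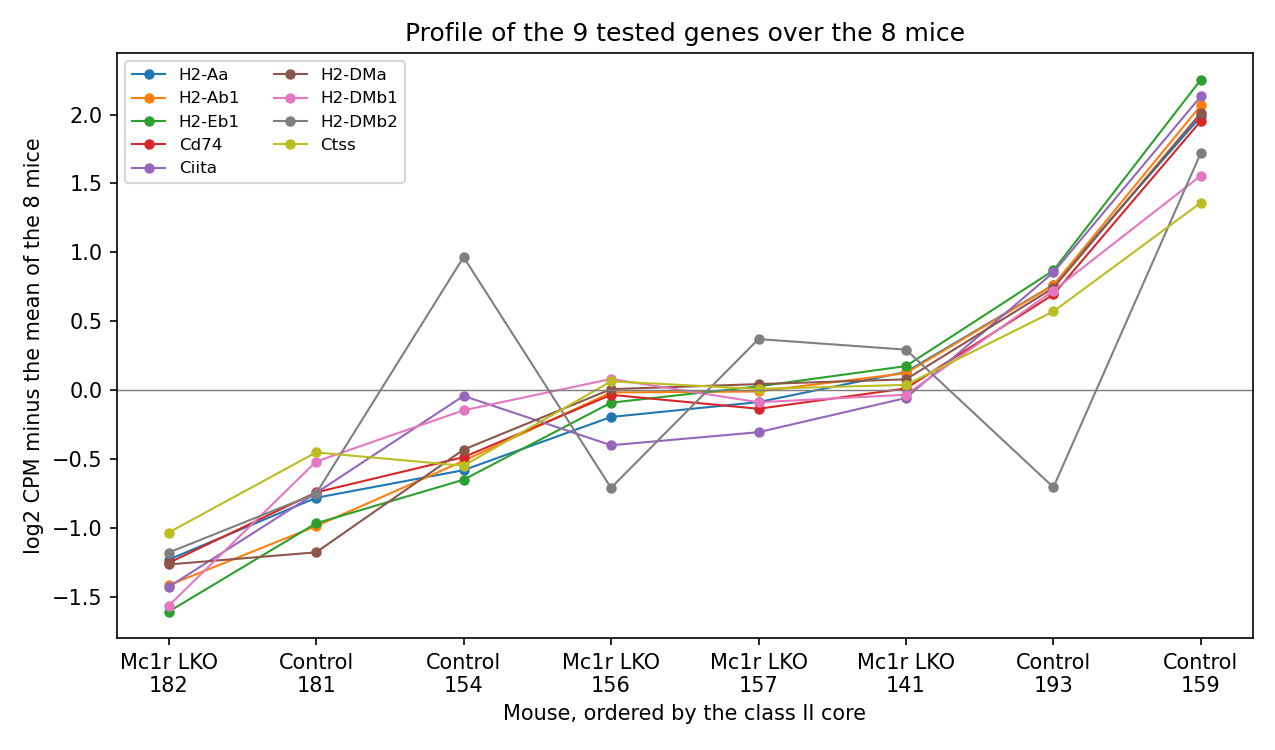
Log2 CPM minus the mean of the 8 mice (y) of the 9 tested genes for each mouse (x), with the mice ordered by the mean of H2-Aa, H2-Ab1, H2-Eb1 and Cd74. The lines run together from Mc1r LKO mouse 182 to Control mouse 159, apart from that of H2-DMb2, which rests on 4 to 24 read pairs per mouse, and the genotypes are interleaved along the axis.

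Taking the mean centred log2 CPM of H2-Aa, H2-Ab1, H2-Eb1 and Cd74 as a core profile, the mice ran, from low to high, in the order 182, 181, 154, 156, 157, 141, 193 and 159. The Mc1r LKO mice thus took the lowest place and the 3 middle places above Control mice 181 and 154. On the log2 scale the 4 Mc1r LKO mice ran from -1.38 to 0.11, with mice 141, 156 and 157 between -0.09 and 0.11, and the Control mice ran from -0.87 to 2.07. The likeness of a gene to the core was measured as the root mean square difference of centred log2 CPM over the 8 mice, where a gene that did not vary would lie at 0.99. H2-DMa lay at 0.13, Ciita at 0.25, H2-DMb1 at 0.28, Ctss at 0.33 and H2-DMb2 at 0.81. Ciita differed most from the core in Control mouse 154, where it was at -0.04 while the core was at -0.56. Ciita minus the core was 0.52, 0.07, 0.12 and 0.08 in Control mice 154, 159, 181 and 193, and -0.17, -0.32, -0.25 and -0.05 in Mc1r LKO mice 141, 156, 157 and 182. It was thus above 0 in all 4 Control mice and below 0 in all 4 Mc1r LKO mice, a split that was noticed after the values were seen and was not tested. The gap was narrow, from 0.07 in Control mouse 159 to -0.05 in Mc1r LKO mouse 182, with 17 to 123 read pairs for Ciita. Values centred over the same 8 mice also must fall on both sides of 0. The share of all genes split on this measure was not computed. On plain CPM, a different measure, the groups lay apart in either direction for 558 of 13400 tested genes.

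Per kilobase of exon, which allows levels to be compared between genes, the mean level over the 8 mice was 111 CPM for Cd74, 39.8 for Ctss, 34.7 for H2-Eb1, 27.3 for H2-Ab1 and 20.3 for H2-Aa. It was 3.27 for H2-DMb1, 2.11 for H2-DMa, 0.447 for H2-DMb2, 0.356 for Ciita and 0.173 for H2-Oa. Cd74 exceeded Ctss in 8 of 8 mice, and each of the places between H2-Eb1 and H2-DMb2 was also held in 8 of 8 mice. Ctss exceeded H2-Eb1 in 7 of 8 mice, and H2-DMb2 exceeded Ciita, and Ciita exceeded H2-Oa, in 6 of 8. The order of these neighbours was thus not the same in every mouse, and differences between genes were not tested. The length used is that of all annotated exons together, 3.80 kb for H2-Aa and 9.54 kb for Ciita, and it lowers the level of genes with many rarely used exons.

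Of the 10 genes, 7 lie within 224 kb of chromosome 17 (34092340 to 34316674), together with 14 other annotated genes, and 12 of these 21 genes were tested. The neighbours differed in how far they shared the profile. Brd2, a chromatin reader whose gene overlaps the start of H2-DMa, lay at a root mean square difference of 1.12 from the core, and Control mouse 159 differed from the other Control mice by -0.16 in log2 CPM. H2-Ob, next to H2-Ab1, lay at 0.70, with differences of 0.66 in Control mouse 159 and -0.94 in Mc1r LKO mouse 182 from the others of their groups. Psmb9 and Psmb8, subunits of the immunoproteasome, and Tap1, a subunit of the peptide transporter, were higher in Control mouse 159 than in the other Control mice by 1.50, 1.33 and 0.99, and Tap2, its partner subunit, by 0.50. In Mc1r LKO mouse 182 these 4 genes differed from the other Mc1r LKO mice by 0.03, 0.06, -0.06 and -0.11, where H2-Aa, H2-Ab1 and H2-Eb1 differed by -1.18, -1.45 and -1.65. Tap1 had an unadjusted p-value of 0.0383 with a log2 fold change of -0.55. These neighbours are all 6 tested genes of the stretch outside the 10, and they were described after their values were seen.

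The other genes of class II presentation, 18 in a list of their own, had no common direction. Of the 15 tested, 7 were lower and 8 higher in Mc1r LKO mice, 0 had an unadjusted p-value under 0.05, and the median log2 fold change was 0.02. Single values ran from -0.92 (Marchf1) to 0.55 (Cd40). The most abundant per kilobase of exon were the lysosomal proteases Ctsz, at a log2 fold change of 0.21 (unadjusted p = 0.0620), and Ctsd, at 0.07 (unadjusted p = 0.583), and proteases of this kind are made by hepatocytes too. Summed over the list, the highest mouse was 1.29 times the lowest, against 10.3 times for the sum of the 4 core genes. Abundant proteases such as Ctsb and Ctsl, with means of 743 and 512 CPM, set most of that sum. Of the list, Marchf1, the ubiquitin ligase that takes class II off the surface of resting cells, reached 8.55 CPM in Control mouse 159, where the others had 1.07 to 4.36 CPM. Ifi30, the thiol reductase that unfolds antigens, reached 42.0 CPM in that mouse, where the others had 10.8 to 26.1 CPM. Both are named because of these values.

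The factors that bind class II promoters with Ciita, among them Rfx5, Rfxap, Rfxank and the NF-Y subunits, were present in every mouse. Of 10 tested, 7 were lower and 3 higher, with a median log2 fold change of -0.10 and 0 at an unadjusted p-value under 0.05. Their summed level differed 1.21-fold between the extreme mice, and the mouse with the highest sum, Control mouse 181, had the second lowest core. The levels per kilobase were highest for the histone acetyltransferase Kat2b, with a log2 fold change of 0.01, and for the NF-Y subunit Nfyb, with 0.09.

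Along the route from the interferon-gamma receptor to Ciita, 7 of 8 tested genes had log2 fold changes below 0, with a median of -0.09 and 0 at an unadjusted p-value under 0.05. Without Control mouse 159, 4 of 9 were lower, with a median of 0.0034. Without Mc1r LKO mouse 182, 6 of 8 were lower, with a median of -0.15. Jak1 and Usf1, the most abundant per kilobase, had log2 fold changes of -0.08 and -0.05. Irf1, which binds the inducible promoter of Ciita, stood at 59.1 CPM in Control mouse 159, and the rest ranged from 24.5 to 37.9 CPM. Unlike the class II genes, it was not low in Mc1r LKO mouse 182, at 26.7 CPM. Ifng itself had 0 counts in 6 of the 8 mice. Irf1 is named because of these values, and the part of this route in the class II levels was not tested.

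Pan-leukocyte, Kupffer cell, dendritic cell and sinusoidal endothelial marker sums had the same highest and lowest mouse as the class II core. These were Control mouse 159 and Mc1r LKO mouse 182. In bulk liver, fewer cells of a type and less RNA per cell cannot be told apart. The summed level of 12 pan-leukocyte markers came to 233 CPM in Control mouse 159, with 68.3 to 164 CPM in the rest of that group. It came to 53.9 CPM in Mc1r LKO mouse 182, with 115 to 133 CPM in the rest of its group. All 12 were tested, and 10 had log2 fold changes below 0, with a median of -0.44 and 0 at an unadjusted p-value under 0.05. The median was -0.09, with 8 of 12 below 0, without mouse 159, and -0.22, with 9 of 12, without mouse 182. The most abundant per kilobase were the signalling adaptors Tyrobp (log2 fold change -0.58, unadjusted p = 0.209) and Fcer1g (-0.54, unadjusted p = 0.305). Relative to this sum, the core was at 2.02, 5.42, 2.55 and 3.17 in Control mice and at 2.84, 2.21, 2.41 and 2.28 in Mc1r LKO mice. The core thus ranged 2.69-fold per unit of leukocyte marker and 10.3-fold without it, and Control mouse 159 stayed the highest.

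The 12 Kupffer cell markers, among them Clec4f, Vsig4 and Timd4, summed to between 515 and 1143 CPM in Control and between 401 and 701 CPM in Mc1r LKO mice, with mouse 159 highest and mouse 182 lowest. All 12 had log2 fold changes below 0, their median was -0.41, and 1 passed the unadjusted threshold, the receptor Csf1r (log2 fold change -0.77, unadjusted p = 0.0375, adjusted p = 0.734 by edgeR's quasi-likelihood test). Without Control mouse 159, 10 of 12 were lower with a median of -0.13, and 0 passed. Without mouse 182, 11 of 12 were lower with a median of -0.29.

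Dendritic cell markers summed to between 16.4 and 39.1 CPM in Control and between 12.7 and 25.2 CPM in Mc1r LKO mice, again with mice 159 and 182 at the ends. Of 12, 7 were tested and 6 were lower, with a median of -0.42 and 0 past the unadjusted threshold, and Flt3, Xcr1 and Cd209a were too low to be tested. Without mouse 159 the median was -0.13 with 5 of 8 lower, and without mouse 182 it was -0.12 with 5 of 7 lower. Clec9a, the receptor for dead cells on cross-presenting dendritic cells, reached 8.46 CPM in Control mouse 159, against 1.82 to 4.12 CPM in the rest (log2 fold change -0.58, unadjusted p = 0.201). Irf8, a factor of that lineage, was between 4.50 and 14.8 CPM (-0.44, unadjusted p = 0.193).

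The B cell marker sum was set by Ighm, the heavy chain of IgM. It was between 28.6 and 93.8 CPM in Control and between 31.4 and 120 CPM in Mc1r LKO mice, highest in Mc1r LKO mouse 157 and lowest in Control mouse 193, the mouse with the second highest core. Ighm took most of it, at 18.7 to 113 CPM with a log2 fold change of -0.01. The sum of the other 11 markers was 10.2, 17.9, 5.06 and 9.91 CPM in Control mice and 7.19, 8.64, 6.18 and 3.12 CPM in Mc1r LKO mice, with mouse 159 highest and mouse 182 lowest, as for class II. Cd79b, the next most abundant per kilobase, had a log2 fold change of -0.69 (unadjusted p = 0.376). Of 12, 5 were tested and all 5 were lower, with a median of -0.55 and 0 past the unadjusted threshold, and the median was -0.09 without mouse 159 and -0.28 without mouse 182. The defining markers Cd79a, Ms4a1 and Pax5 were below the filter.

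Markers of T and NK cells summed to 16.2 CPM in Control mouse 159, against 3.72 to 8.20 CPM in the rest, with 3 of 12 tested and 0 past the unadjusted threshold. Of the 3, 1 was lower and 2 higher, with a median of 0.35, which was 0.68 without mouse 159 and -0.16 without mouse 182. Il2rb was the lower one (log2 fold change -0.52, unadjusted p = 0.190), and Gzma, not tested, had 2.98 CPM in mouse 159 and at most 0.404 CPM in the rest. Markers of recruited macrophages and monocytes were highest in Mc1r LKO mouse 141, at 364 CPM, most of it Spp1 at 239 CPM, which bile duct cells also make. Of 9 tested, 4 were lower and 5 higher, with a median of 0.01, or -0.02 without mouse 159 and 0.33 without mouse 182. Spp1 and Lyz2 had log2 fold changes of 0.37 and -0.15.

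The sinusoidal endothelial markers ranged 1.58-fold over the mice, again with mouse 159 highest and mouse 182 lowest. Of 12, 10 were lower at a median of -0.16 (Clec4g -0.13, Oit3 0.09). The median was -0.08 without mouse 159 and -0.02 without mouse 182. Stellate cell markers ranged 1.84-fold, with 7 of 10 lower at a median of -0.07 (Ecm1 and Dcn 0.01 each). Without mouse 159, 7 of 10 were lower at -0.16, and without mouse 182, 3 of 10 at 0.03. The bile duct markers had 4 of 7 tested and 0 of them lower, Sox9 among them at 0.05. Hepatocyte markers ranged 1.47-fold and were highest in Mc1r LKO mouse 182, with 9 of 10 higher at a median of 0.19. Without that mouse 5 of 10 were higher at a median of 0.0019. The median was 0.26 without mouse 159, with 1 of 10 lower. Tat, an enzyme of tyrosine breakdown, passed the unadjusted threshold at 0.88 (unadjusted p = 0.0374 by edgeR's quasi-likelihood test). Across all these lists 0 genes passed after adjustment over all genes. The part of cell numbers in the class II values was not tested.

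**Figure D4:**
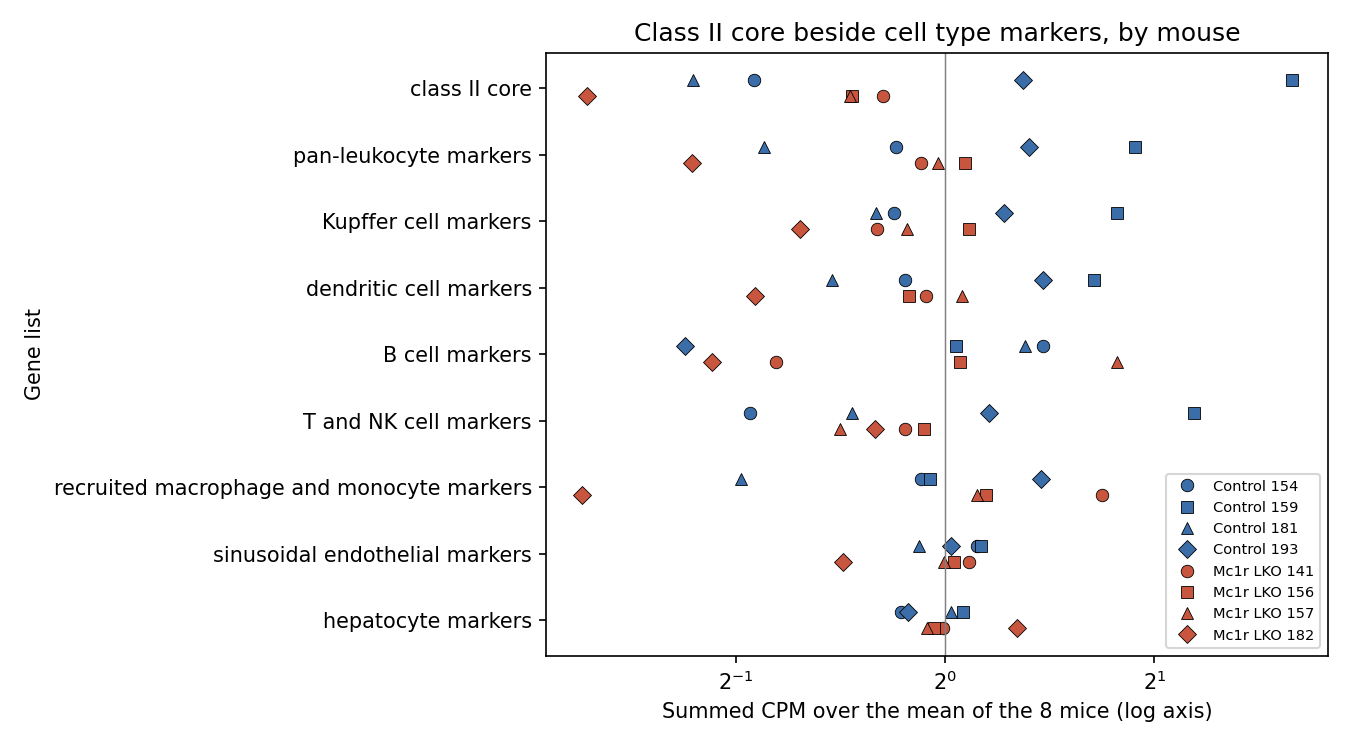
Summed CPM over the mean of the 8 mice (x, log axis) for the 4 core class II genes and for 8 lists of cell type markers (y), with Control mice in blue, Mc1r LKO mice in red and a symbol for each mouse. The core spans 10.3-fold, pan-leukocyte markers 4.33-fold, Kupffer cell markers 2.85-fold and hepatocyte markers 1.47-fold. Mice 159 and 182 lie at the ends of the first 4 lists and of the sinusoidal endothelial markers.

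The genes most like the core in their pattern over the 8 mice, other than the 10, were Ly86, at a root mean square difference of 0.23, Cd274 at 0.24, Fcgr4, Kif4 and Spi1 at 0.25, 0.25 and 0.27, Cd180 at 0.27, Clec4n at 0.29 and Klrk1 at 0.30. Ly86 and Cd180 encode partner proteins on B cells and macrophages, Cd274 the checkpoint ligand PD-L1, Fcgr4 an IgG receptor, and Spi1 the myeloid factor PU.1. Kif4 was low, at 0.153 to 2.23 CPM, so its pattern rests on few read pairs. Ly86 was at 3.46, 14.9, 2.81 and 7.75 CPM in Control mice and at 5.25, 3.51, 5.25 and 2.10 CPM in Mc1r LKO mice, and Cd274 had 10.0 CPM in Control mouse 159 against 1.48 to 5.14 CPM in the rest. Leaving out mouse 159, the mouse with the highest core, the nearest genes were Cd53 (0.15), Tmem86a (0.16), Clec4n (0.16), Tyrobp (0.16), Tlr2 (0.17), Clec7a (0.18), Ly86 (0.18) and Myo1f (0.20). Of the 8 genes, 2 were in both sets, Ly86 and Clec4n.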

How the data were processed

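The authors trimmed reads with Trim Galore 0.6.6, aligned them to GRCm38 with STAR 2.7.6a and counted read pairs per gene by strand with featureCounts 2.0.1. The deposited values are raw counts, 1 table per mouse, without normalization. Ensembl identifiers were given symbols from a table that matched 55141 of 55487. Genes kept by filterByExpr of edgeR 4.0.16 in R 4.3.3 (minimum count 10, minimum total 15) were normalized by TMM and tested by the quasi-likelihood test, with Benjamini-Hochberg adjustment over 13400 genes. The filter and normalization are those of the study, whose methods do not name the test. CPM values use the TMM factors, also for genes not kept, and log2 CPM has a prior count of 2. Intervals are 95% from the same fit. On simulated counts the test called 90 of 95 genes changed 4-fold and 63 of 98 changed 2-fold, over 13183 genes, and 5 unchanged genes. The changed genes were drawn at random from all tested genes. The class II genes spread more widely between mice than most, so these rates do not carry over to them. Groups came from the sample titles, and nothing names a batch. Each mouse gave 1 library, and limits from a count of 0 cover counting error only.

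The alternatives were DESeq2 1.42.0, limma-voom (limma 3.58.1), RLE normalization, library size only, no filter beyond 1 count, at least 10 counts in every mouse, each mouse left out, and mice 159 and 182 both left out. The members and lists were chosen with earlier results of these data known. All 10 members are named, and from each other list the genes with an unadjusted p-value under 0.05 (at most 4), or else the 2 most abundant per kilobase. The 8 genes nearest the core are named too. Other genes were named after their values were seen.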

Additional observations from a re-analysis of the deposited data

Results flagged for a closer look

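Among the 20 groups of 4 mice checked (10 genes in 2 genotypes), 6 held a mouse far from the other 3 of its group by Dixon's test, where chance gives about 1 in 20 groups. The genes share mice and move together, so the 6 are not independent. Of these, 5 were Mc1r LKO mouse 182, the lowest of its group. It was at 19.8 CPM for H2-Ab1 against 52.5 to 57.9 CPM in the other 3 mice, at 61.8 CPM for Cd74 against 134 to 149 CPM, and at 2.25 CPM for H2-DMa against 5.59 to 5.88 CPM. For H2-DMb1 it was at 1.48 CPM against 4.32 to 4.87 CPM, and for Ctss at 23.3 CPM against 48.1 to 50.0 CPM. The remaining one was H2-Oa in Mc1r LKO mouse 156, at 0.260 CPM against 0.202 to 0.207 CPM, where the 4 mice had between 3 and 5 read pairs. Control mouse 159, the highest for 9 genes, was not far enough by this test, since the other Control mice were widely spread.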

How the results depend on the processing

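The number of class II genes past the adjusted threshold was 0 in each of the 15 alternatives. The number at an unadjusted p-value under 0.05 was 1 with all mice and moved to 2 with DESeq2, 0 with limma-voom, 6 (of 10 genes tested) with no filter beyond 1 count, and 0 with mice 159 and 182 both left out. With each mouse left out it was between 0 and 7, the highest without Control mouse 181 and the next, 4, without Control mouse 154, and it was 0 without mouse 159, 193, 156, 157 or 182. The number of genes lower in Mc1r LKO mice was every gene tested in the other alternatives, and 4 of 9 without mice 159 and 182. There the median was 0.040 and H2-Ab1 (0.083), H2-Eb1 (0.053), H2-DMa (0.11), H2-DMb2 (0.040) and Ctss (0.087) turned positive. Otherwise the median stayed between -1.32 and -0.23. Fewer mice or genes were tested in the settings that leave some out, and other causes were not tested. Of 134 values of single genes under the alternatives, 129 kept their sign. Over all genes, 0 passed the adjusted threshold with edgeR, 16 with DESeq2 and 1 with no filter beyond 1 count. Scaling by library size alone moved the share of all tested genes that were lower from 52.1% to 61.8%. In it as with TMM, 0 of 9 genes had groups that did not overlap. The depth limited H2-Oa and H2-DMb2.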
